A study of Mus musculus with 12 samples.

Results

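Aminoacyl-tRNA synthetases are the enzymes that join each amino acid to its tRNA, and the genes for 36 of them were followed through 12 polyadenylated RNA libraries of mouse regulatory T cells (Treg). They were taken as a named list of 20 cytosolic and 16 mitochondrial enzymes, by function and not by a rule on values, and all 36 were found in both expression tables among the 15408 genes that the tables share by symbol. Treg are the CD4 T cells, marked by the transcription factor Foxp3, that hold immune responses in check. The libraries form 6 groups of 2, which are Treg of Kdm2b conditional knockout mice (cKO) in vivo, wild-type (WT) Treg in vivo, cKO Treg stimulated in vitro, WT Treg stimulated in vitro, cKO Treg unstimulated in vitro and WT Treg unstimulated in vitro. All came from spleen and lymph nodes, and in vivo stands for the libraries whose labels name no culture. Kdm2b codes for a histone demethylase that also brings the Polycomb complex PRC1.1 to CpG islands. The labels give neither the Cre driver, the ages of the mice nor the stimulus, and nothing says that the 2 libraries of a group came from separate animals or cultures, so p-values measure only the spread between these libraries.

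Most synthetases recognise a single amino acid and its tRNAs, and the charged tRNA is what the ribosome reads. Mammalian cells keep a cytosolic set, which serves the proteins made from nuclear genes. A mitochondrial set, also encoded in the nucleus, serves the few proteins made inside the organelle. The sets are not fully separate, and Gars and Kars, with no mitochondrial partner among the members, were counted as cytosolic only. Several cytosolic enzymes sit together in the multisynthetase complex, held by the scaffold proteins Aimp1, Aimp2 and Eef1e1. Many cytosolic synthetase genes are known targets of ATF4, the transcription factor that is translated when amino acids run short, and T cells are known to raise amino acid uptake and protein synthesis when activated.

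The tables hold FPKM, which are fragments scaled to gene length and library size, and they were normalized apart, 1 for the in vivo and 1 for the in vitro libraries. FPKM summed to between 461753 and 475374 in vivo and between 369720 and 438763 in vitro, and the read depth is unknown. Foxp3 was present in every library, at 71.5 FPKM or more. Kdm2b was listed at 147 and 125 FPKM in cKO Treg in vivo, against 113 and 110 FPKM in WT Treg in vivo, and at 66.3 to 97.4 FPKM in the 4 cKO and 71.7 to 94.9 FPKM in the 4 WT libraries in vitro. Which exons the knockout removes is not given, so this level checks no label, and cKO and WT stand for libraries so labelled. The WT replicate 2 libraries in vitro had 13273 (stimulated) and 12379 (unstimulated) genes listed at 0, where the remaining 6 in vitro libraries had 9102 to 9857. Haemoglobin transcripts took 10.3% of all FPKM in the stimulated and 11.6% in the unstimulated cKO replicate 1 library, and at most 1.86% in any other library. In bulk RNA, fewer cells of a type and less RNA per cell cannot be told apart.

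Cytosolic synthetase transcripts were more abundant than mitochondrial ones in every library. The 20 cytosolic genes summed to 578 and 611 FPKM in cKO Treg in vivo and to 597 and 607 FPKM in WT Treg in vivo. In culture they summed to 1250 and 1125 FPKM in stimulated cKO Treg, and to 1132 and 971 FPKM in stimulated WT Treg. In unstimulated culture the sums were 863 and 773 FPKM in cKO Treg and 794 and 705 FPKM in WT Treg. All 4 stimulated libraries thus lay above all 4 unstimulated ones. The 16 mitochondrial genes summed to 119 and 119 FPKM in cKO and 122 and 119 FPKM in WT Treg in vivo, and to between 126 and 157 FPKM in the 8 in vitro libraries, with stimulated and unstimulated ranges that overlapped. The cytosolic sum was 8.86 and 8.14 times the mitochondrial sum in stimulated cKO Treg, against 6.14 and 6.07 times in unstimulated cKO Treg. In WT Treg it was 8.98 and 6.50 times in stimulated libraries, against 5.84 and 4.48 times in unstimulated ones. In vivo it was 4.84 and 5.14 times in cKO Treg, against 4.90 and 5.08 times in WT Treg.

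**Figure D1:**
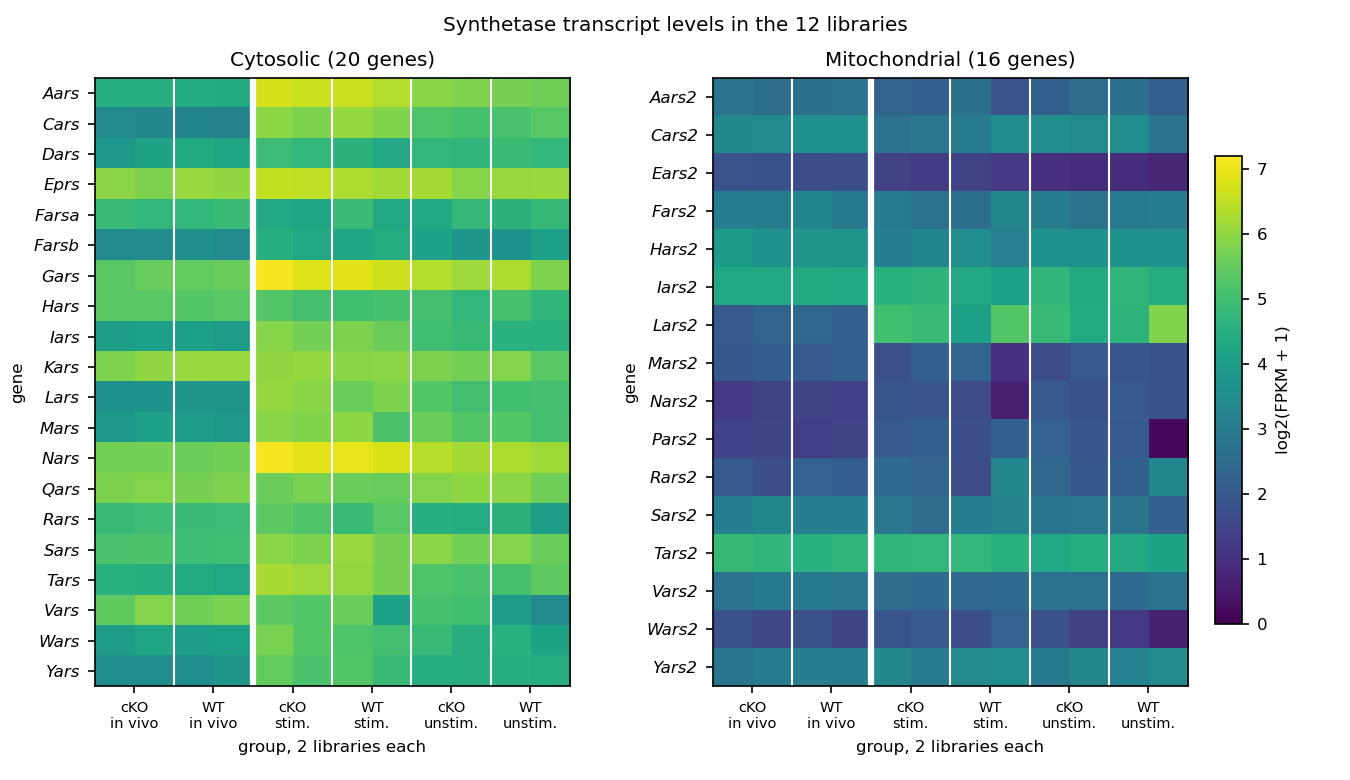
Each cell is 1 of 36 synthetase genes (rows) in 1 of 12 libraries (columns, 2 per group), coloured by its level as log2(FPKM + 1), with cytosolic genes on the left and mitochondrial genes on the right; a thick line parts the in vivo table from the in vitro table, which were normalized apart. Nars and Gars are brightest in the stimulated libraries, and the Pars2 value of 0.131 FPKM stands out in the second unstimulated WT library.

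The heat map of levels shows which enzymes led in each table. In vivo the most abundant cytosolic genes were Kars, for lysine, at 59.6 FPKM in cKO and 67.2 FPKM in WT (means of 2), and Eprs, the fused enzyme for glutamate and proline, at 57.3 FPKM in cKO and 64.9 FPKM in WT. Their library values interleave in cKO Treg, with Kars at 55.4 and 63.8 FPKM and Eprs at 61.0 and 53.6 FPKM, so there these neighbours do not differ beyond their spread. In WT Treg Kars was the higher within each library, at 67.5 and 66.8 FPKM against 67.2 and 62.6 FPKM of Eprs, and this order was not tested. The least abundant in vivo were Cars, for cysteine, at 9.41 FPKM in cKO and 8.39 FPKM in WT, and Farsb, a subunit of the phenylalanine enzyme, at 10.0 FPKM in cKO and 10.3 FPKM in WT. In culture Nars, for asparagine, had the highest mean in all 4 groups, at 128 and 115 FPKM in stimulated cKO and WT Treg and at 79.9 and 75 FPKM in unstimulated cKO and WT Treg. Gars, for glycine, came next in every cultured group but unstimulated WT, where Eprs did. In stimulated cKO Treg Gars was at 137.4 and 111 FPKM and Nars at 136.9 and 119 FPKM, so their order changed between the 2 libraries. In stimulated WT Treg Gars was at 115 and 99.4 FPKM and Nars at 122 and 109 FPKM, so Nars was the higher within each library. The order of these neighbours was not tested. Among mitochondrial genes Tars2 led in vivo, at 26.4 FPKM in cKO and 24.1 FPKM in WT, followed by Iars2 at 19.0 FPKM in cKO and 19.5 FPKM in WT. Lars2 had the highest mean in every cultured group, at 24.0 to 40.3 FPKM, but not the highest value in every library. In the first stimulated WT library it was at 16.1 FPKM and Tars2 at 26.3 FPKM, and in the first unstimulated WT library it was at 24.2 FPKM and Iars2 at 24.97 FPKM. In the second unstimulated cKO library Lars2 was at 20.3 FPKM and Tars2 at 20.8 FPKM. The lowest were Nars2 and Pars2 in vivo, at 1.56 to 1.80 FPKM, and Ears2 in 3 of the 4 cultured groups, at 0.823 to 1.53 FPKM. In stimulated WT Treg Nars2 was lowest, at 1.37 FPKM.

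Because the tables were normalized apart, levels in culture and in vivo are set side by side without a test. The share of all genes with libraries apart in this way was not counted, so the counts below are not shown to be unusual. Of the 20 cytosolic genes, 12 had all 4 unstimulated libraries above all 4 in vivo libraries, 3 had them below (Hars, Rars and Vars) and 5 overlapped. Cars ranged over 33.3 to 39.2 FPKM in unstimulated culture and 8.23 to 9.67 FPKM in vivo, and Lars, for leucine, over 31.2 to 37.9 FPKM in unstimulated culture and 11.2 to 12.6 FPKM in vivo. Of the 16 mitochondrial genes, 2 lay above (Lars2 and Nars2), 3 below (Ears2, Sars2 and Tars2) and 11 overlapped. Lars2 ranged over 20.3 to 56.5 FPKM in unstimulated culture and 3.22 to 4.27 FPKM in vivo.

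In cKO Treg, stimulation in vitro raised 6 of the 20 cytosolic synthetases, Aars, Cars, Iars, Lars, Nars and Tars, while none of the 16 mitochondrial ones was called. In WT Treg it raised 2 of 20, Aars and Iars, and again none of the 16. The series text names in vitro activation of both genotypes as 1 of its experiments, and this comparison asks which genes follow it. A call means an adjusted p under 0.05 in limma's test on log2(FPKM + 1), with Benjamini-Hochberg adjustment over the 10710 genes tested in vitro. All 36 members had a mean of at least 1 FPKM and were tested. Of all genes tested, 2.08% were called higher and 2.49% lower in stimulated cKO Treg, and 1.61% higher and 0.822% lower in stimulated WT Treg. The cKO share of higher calls depends on scaling, with 223 of 490 calls higher as deposited and 308 of 452 under median-of-ratios scaling. In WT it was 172 of 260 as deposited and 200 of 262 after rescaling to a common sum.

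Iars, which charges tRNAs with isoleucine within the multisynthetase complex (chromosome 13, bases 49682100 to 49734267, plus strand, GRCm38), reached 58.7 and 50.6 FPKM in stimulated cKO Treg, against 31.0 and 28.2 FPKM in unstimulated cKO Treg. Stimulated WT Treg had 53.6 and 45.8 FPKM, against 23.2 and 23.4 FPKM in unstimulated WT Treg. No stimulated library overlapped an unstimulated one in either genotype. Its log2 fold change was 0.86 ± 0.15 in cKO (SE, adjusted p = 0.0258) and 1.06 ± 0.15 in WT (adjusted p = 0.0149).

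Aars, the alanine enzyme (chromosome 8, bases 111033144 to 111057664, plus strand), was listed at 104.5 and 98.1 FPKM in stimulated cKO Treg, against 60.1 and 54.9 FPKM in unstimulated cKO Treg. In WT Treg the values were 97.5 and 81.9 FPKM stimulated, against 52.0 and 49.0 FPKM unstimulated. Again the stimulated and unstimulated libraries were apart in both genotypes. The log2 fold change was 0.81 ± 0.14 in each genotype, with adjusted p = 0.0252 in cKO and 0.0290 in WT. An Aars exon overlaps an exon of Exosc6 on the same strand, so reads there may be shared.

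Tars, the threonine enzyme (chromosome 15, bases 11382301 to 11399665, minus strand), had the highest log2 fold change of the called members in cKO Treg. It was at 76.7 and 69.6 FPKM in stimulated cKO Treg, against 36.2 and 34.6 FPKM in unstimulated cKO Treg, a log2 fold change of 1.03 ± 0.17 (adjusted p = 0.0213). Stimulated WT Treg had 64.6 and 51.8 FPKM, against 33.2 and 41.7 FPKM in unstimulated WT Treg, with a log2 fold change of 0.62 ± 0.17 that was not called (adjusted p = 0.112). Both genotypes had every stimulated library above every unstimulated one.

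Lars, the leucine enzyme and a known leucine sensor upstream of mTORC1, was at 66.1 and 59.6 FPKM in stimulated cKO Treg, against 37.9 and 32.0 FPKM in unstimulated cKO Treg (log2 fold change 0.83 ± 0.15, adjusted p = 0.0276). Stimulated WT Treg had 46.8 and 53.8 FPKM of Lars, against 31.2 and 32.0 FPKM in unstimulated WT Treg (0.65 ± 0.15, adjusted p = 0.0729). Here too the stimulated libraries stood above the unstimulated ones in each genotype.

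Nars was at 137 and 119 FPKM in stimulated cKO Treg, against 85.2 and 74.6 FPKM in unstimulated cKO Treg (log2 fold change 0.67 ± 0.14, adjusted p = 0.0457). WT Treg had 122 and 109 FPKM of Nars when stimulated, against 78.3 and 71.6 FPKM when unstimulated (0.61 ± 0.14, adjusted p = 0.0758). Cars was at 61.8 and 53.9 FPKM in stimulated cKO Treg, against 36.1 and 33.3 FPKM in unstimulated cKO Treg (0.72 ± 0.16, adjusted p = 0.0460). In both genotypes the groups were apart for Nars, and the same held for Cars, whose WT values were 65.5 and 55.7 FPKM stimulated, against 34.1 and 39.2 FPKM unstimulated (0.71 ± 0.16, adjusted p = 0.0613). A call in cKO and none in WT does not show a difference between genotypes. The interaction of genotype and stimulation called none of these, with log2 differences of -0.20 to 0.40 (cKO response minus WT response) and adjusted p = 0.999 for each of the 6.

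**Figure D2:**
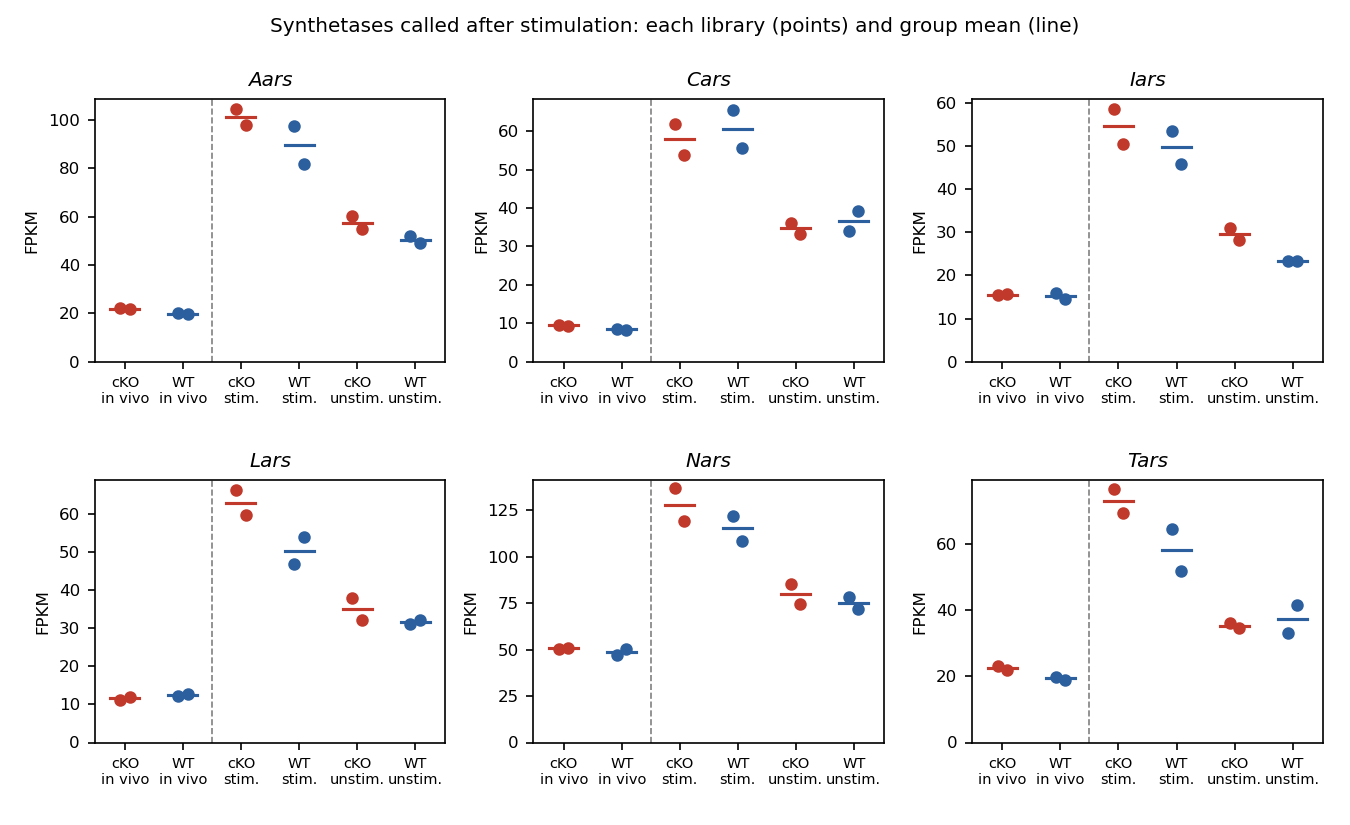
FPKM of the 6 synthetases called after stimulation, with 1 point per library, a line at the mean of each group of 2 and cKO in red beside WT in blue; the dashed line parts the in vivo table, normalized apart, from the in vitro table. In all 6 panels the stimulated points lie above the unstimulated points of the same genotype, as for Iars at 50.6 FPKM or more in stimulated and 31.0 FPKM or less in unstimulated cKO Treg.

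The plot of the called genes also shows what the calls rest on, which is 2 libraries a group. Without the filter on low genes limma called none of the 20 in either genotype. Without any 1 of the 4 cKO in vitro libraries, or without both cKO replicate 1 libraries, limma called none of the 20 cytosolic genes in cKO Treg. Without both WT replicate 2 libraries it called 10 in cKO Treg. In WT Treg, Iars alone was called without any 1 of the cKO libraries or without unstimulated WT replicate 2, and none was called without unstimulated WT replicate 1. Over all 18 alternatives, 17 or 18 of the 20 cytosolic log2 fold changes were above 0 in cKO Treg and 16 to 18 in WT Treg.

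As a set, the cytosolic genes had a median log2 fold change of 0.57 in cKO Treg and 0.59 in WT Treg, beside medians over all genes tested of -0.14 in cKO and -0.04 in WT. Scaling by median of ratios moved the cKO median of all genes to -0.02. In cKO Treg 18 of the 20 were above 0 and in WT Treg 17 of 20, against 36.7% of all genes in cKO Treg and 45.7% in WT Treg. Both stimulated libraries stood above both unstimulated ones for 16 cytosolic genes in cKO Treg and 14 in WT Treg, where 20.7% of all genes in cKO Treg and 18.8% in WT Treg did so. At an unadjusted p under 0.05, limma had 11 higher and 0 lower in each genotype, where 6.90% of all genes passed higher and 14.5% lower in cKO Treg, and 8.63% higher and 10.1% lower in WT Treg. The mitochondrial set had median log2 fold changes of 0.05 in cKO Treg and -0.09 in WT Treg. In cKO Treg 9 of the 16 were above 0, and 12 to 14 were under the 4 scaling alternatives. In WT Treg 7 of 16 were above 0. The stimulated libraries stood above the unstimulated ones for 4 and below them for 3 of the 16 in each genotype, where 44.1% of all genes in cKO Treg and 22.9% in WT Treg stood below. At an unadjusted p under 0.05 there were 1 higher and 2 lower in cKO Treg, and 3 higher and 0 lower in WT Treg.

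**Figure D3:**
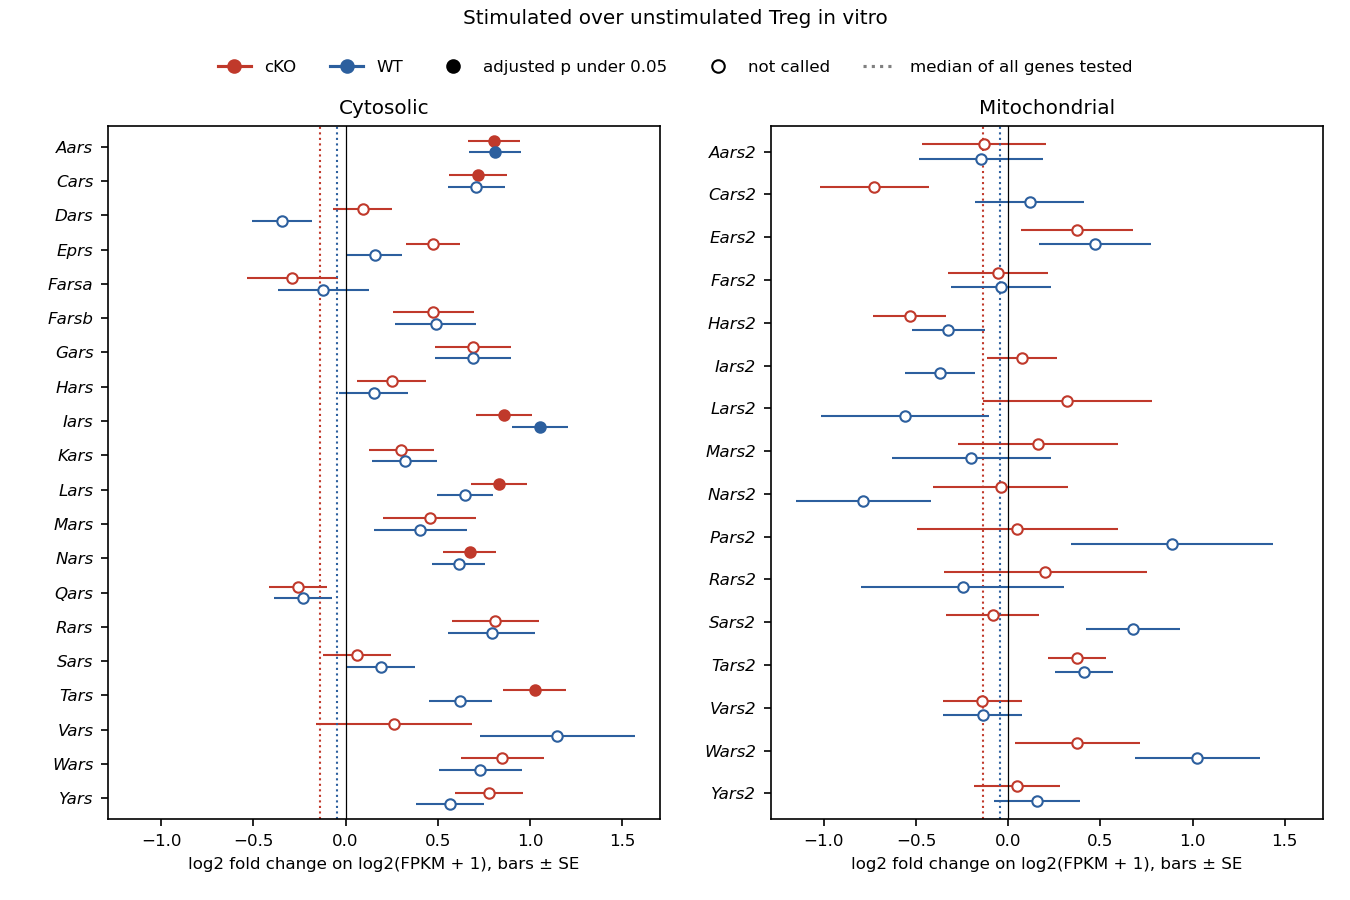
Log2 fold change on log2(FPKM + 1), stimulated over unstimulated, for each cytosolic (left) and mitochondrial (right) synthetase, with cKO in red above WT in blue, bars of ± 1 SE, filled points for adjusted p under 0.05 and dotted lines at the medians of all genes tested (-0.14 in cKO, -0.04 in WT). The cytosolic points cluster right of 0 around 0.57 (cKO) and 0.59 (WT), with Farsa and Qars left of 0 in both genotypes, and the mitochondrial points lie on both sides of 0.

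The plot of responses shows that not all cytosolic log2 fold changes were above 0. Qars, for glutamine, was at 47.0 and 52.5 FPKM in stimulated cKO Treg, against 57.4 and 62.0 FPKM in unstimulated cKO Treg (log2 fold change -0.26, adjusted p = 0.399). Stimulated WT Treg had 47.0 and 44.7 FPKM of Qars, against 61.1 and 47.7 FPKM in unstimulated WT Treg (-0.23, adjusted p = 0.465). Its stimulated values were thus the lower ones in each genotype, without a call. Farsa, the catalytic subunit of the phenylalanine enzyme, was at 18.8 and 18.2 FPKM in stimulated cKO Treg, against 19.3 and 27.0 FPKM in unstimulated cKO Treg. The WT values of Farsa were 29.1 and 18.4 FPKM stimulated, against 23.6 and 27.1 FPKM unstimulated, so those groups overlapped. Its partner subunit Farsb had log2 fold changes of 0.48 in cKO and 0.49 in WT, and Farsa of -0.29 in cKO and -0.12 in WT, none of them called. Dars, for aspartate, was at 29.4 and 26.0 FPKM in stimulated cKO Treg and 26.4 and 25.4 FPKM in unstimulated cKO Treg, which overlap, and at 23.7 and 19.4 FPKM in stimulated WT Treg, against 28.9 and 26.1 FPKM in unstimulated WT Treg, which do not. Sars, for serine, overlapped in both genotypes, at 60.9 and 54.4 FPKM in stimulated cKO, 66.6 and 52.0 FPKM in stimulated WT, 60.2 and 50.4 FPKM in unstimulated cKO and 57.7 and 45.9 FPKM in unstimulated WT Treg.

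The other cytosolic genes were not called. Wars, for tryptophan, was at 52.4 and 38.3 FPKM in stimulated cKO Treg, against 27.8 and 21.4 FPKM in unstimulated cKO Treg (log2 fold change 0.85 ± 0.23, adjusted p = 0.0784). The WT values of Wars were 36.2 and 31.9 FPKM stimulated, against 23.4 and 17.2 FPKM unstimulated (0.73 ± 0.23, adjusted p = 0.142). Yars, for tyrosine, had a log2 fold change of 0.78 in cKO (adjusted p = 0.0579) and 0.57 in WT (adjusted p = 0.159). Gars and Rars, for glycine and arginine, had log2 fold changes of 0.69 and 0.81 in cKO (adjusted p = 0.104 and 0.0969) and of 0.69 and 0.79 in WT (adjusted p = 0.133 and 0.132). Mars, Hars, Kars and Eprs had 0.25 to 0.47 in cKO, with adjusted p between 0.116 and 0.501, and 0.15 to 0.40 in WT, with adjusted p between 0.366 and 0.70. Reads of Mars and of the ATF4 pathway gene Ddit3 may be shared, since their exons overlap on opposite strands and the strand setting of the counting is not given. The exons of Hars and Hars2 overlap in the same way.

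Vars, for valine, had the largest standard error of the cytosolic genes in culture. It was at 40.8 and 37.8 FPKM in stimulated cKO Treg, against 33.5 and 31.6 FPKM in unstimulated cKO Treg, and at 47.3 and 16.1 FPKM in stimulated WT Treg, against 14.4 and 9.90 FPKM in unstimulated WT Treg. The groups were apart in both genotypes, but the WT libraries spread widely. The log2 fold change was 0.26 ± 0.42 in cKO and 1.15 ± 0.42 in WT (adjusted p = 0.784 in cKO and 0.20 in WT). Its interaction was -0.89 ± 0.60 (adjusted p = 0.999).

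Split by the architecture of the enzymes, called genes were found in each class. Of the 8 cytosolic members in the multisynthetase complex (Dars, Eprs, Iars, Kars, Lars, Mars, Qars and Rars), 2 were called in cKO Treg and 1 in WT Treg, with median log2 fold changes of 0.47 in cKO and 0.36 in WT. Of the 12 outside it, 4 were called in cKO and 1 in WT, with medians of 0.68 in cKO and 0.62 in WT. The 10 class I enzymes, in which the catalytic domain is a Rossmann fold, had medians of 0.75 in cKO and 0.68 in WT and held 3 cKO calls and 1 WT call; Eprs was counted here by its glutamate domain. The 10 class II enzymes had medians of 0.39 in cKO and 0.40 in WT, with 3 cKO calls and 1 WT call. These are counts and medians with no test between the classes.

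Among the mitochondrial enzymes Tars2, for threonine, had its stimulated libraries above its unstimulated ones in both genotypes, with a log2 fold change of 0.37 ± 0.16 in cKO (adjusted p = 0.22) and 0.41 ± 0.16 in WT (adjusted p = 0.212). Hars2, for histidine, showed the opposite order, at 7.37 and 8.54 FPKM in stimulated cKO Treg, against 12.1 and 11.8 FPKM in unstimulated cKO Treg (-0.53 ± 0.20, adjusted p = 0.172). The WT values of Hars2 were 10.4 and 7.84 FPKM stimulated, against 11.7 and 11.5 FPKM unstimulated (-0.32 ± 0.20, adjusted p = 0.411). Its stimulated values were the lower ones in both genotypes. Cars2, for cysteine, was at 5.38 and 6.27 FPKM in stimulated cKO Treg, against 10.6 and 9.98 FPKM in unstimulated cKO Treg (-0.73 ± 0.30, adjusted p = 0.206). In WT Treg Cars2 overlapped, at 7.13 and 10.3 FPKM stimulated, against 10.6 and 5.78 FPKM unstimulated.

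Several mitochondrial genes were uneven between the WT libraries. Wars2, for tryptophan, was at 2.33 and 3.79 FPKM in stimulated WT Treg, against 1.35 and 0.639 FPKM in unstimulated WT Treg (log2 fold change 1.02 ± 0.34, adjusted p = 0.164). In cKO Treg it was at 2.68 and 3.06 FPKM stimulated, against 2.48 and 1.56 FPKM unstimulated, so stimulated values were higher in both genotypes without a call. Nars2 was at 2.15 and 0.581 FPKM in stimulated WT Treg, against 3.21 and 2.53 FPKM in unstimulated WT Treg (-0.79 ± 0.37, adjusted p = 0.295), while in cKO Treg it was at 2.67 and 2.59 FPKM stimulated and 3.06 and 2.43 FPKM unstimulated, which overlap. Iars2 was at 19.4 and 15.9 FPKM in stimulated WT Treg, against 24.97 and 21.1 FPKM in unstimulated WT Treg (-0.37 ± 0.19, adjusted p = 0.335). In cKO Treg Iars2 overlapped, at 23.1 and 24.5 FPKM stimulated and 25.7 and 19.8 FPKM unstimulated. Lars2, for leucine, was at 16.1 and 37.9 FPKM in stimulated WT Treg, against 24.2 and 56.5 FPKM in unstimulated WT Treg, and its replicates differed more than its groups (-0.56 ± 0.46, adjusted p = 0.542). Without either unstimulated WT replicate 2 or stimulated WT replicate 1 the sign of that value turned, to 0.03 in each case. Lars2 in cKO Treg was at 31.4 and 28.5 FPKM stimulated and 27.7 and 20.3 FPKM unstimulated.

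The responses of the 2 genotypes share no library, so they can be set beside each other across genes as a description. The correlation of the cKO with the WT log2 fold changes was 0.76 (Pearson) and 0.73 (Spearman) over the 20 cytosolic genes, 0.23 and 0.20 over the 16 mitochondrial genes, and 0.63 and 0.58 over all 10710 genes. Genes are not independent replicates, and no test was made. Of the cytosolic genes 17 were above 0 in both genotypes, 2 below 0 in both and 1 (Dars) opposite. Of the mitochondrial genes 5 were above, 5 below and 6 opposite.

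For 16 amino acids both the cytosolic and the mitochondrial enzyme are among the 36 genes, with Eprs paired to both Ears2 and Pars2 and Farsa to Fars2, and FPKM being per length, their levels can be divided. The ratio of cytosolic to mitochondrial transcript had a median of 9.06 and 8.86 over the 16 pairs in stimulated cKO Treg, against 5.5 and 6.46 in unstimulated cKO Treg. In WT Treg it was 9.80 and 4.85 in stimulated libraries, against 4.93 and 5.31 in unstimulated ones, so the second stimulated WT library did not stand above the unstimulated ones. In vivo it was 4.21 and 4.11 in cKO Treg, against 3.85 and 3.89 in WT Treg. In cKO Treg 11 pairs had the ratio higher in both stimulated than in both unstimulated libraries and 1 lower. In WT Treg 7 were higher and 3 lower. Between genotypes, 4 pairs were higher and 2 lower in cKO both in vivo and in stimulated culture. In unstimulated culture 3 were higher and 2 lower. The share for other pairs of genes was not counted, and Eprs enters 2 pairs, so these counts have no background to be read against. For cysteine the ratio was 11.5 and 8.59 in stimulated cKO Treg, against 3.41 and 3.33 in unstimulated cKO Treg, and 1.04 and 0.960 in cKO Treg in vivo, against 0.739 and 0.735 in WT Treg in vivo. The cysteine ratio overlapped in cultured WT Treg, at 9.19 and 5.40 stimulated, against 3.22 and 6.79 unstimulated. For isoleucine it was 2.77 and 2.88 in stimulated WT Treg, against 0.931 and 1.11 in unstimulated WT Treg. In vivo the mitochondrial isoleucine and threonine enzymes were thus the more abundant, with ratios of 0.754 to 0.868 in all 4 libraries. The smallest denominators give the extreme ratios, such as 520 for Eprs over Pars2 in the second unstimulated WT library.

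The known recognition sequence of ATF4 dimers with C/EBP proteins, searched as TGATGNAA on both strands, was present in the promoters of some of the called genes. Promoters, 250 bases before to 50 after each start, were read from RefSeq (GRCm38.p6) for the 27 members that it lists by symbol, 13 cytosolic and 14 mitochondrial. The match was found in 5 of the 13 cytosolic promoters, Aars, Gars, Iars, Tars and Yars, in 0 of the 14 mitochondrial ones, and in 3.97% of all 32851 promoters of the same length. A site of each of the 5 genes is shown because they include 3 of the 6 called members, each on the strand of its gene with the match in capitals.
Aars, 9 bases after the start, chr8:111033840-111033869, plus strand: agcgggtcactTTTCATCAgagcgctctga
Gars, 30 bases before the start, chr6:55037960-55037989, plus strand: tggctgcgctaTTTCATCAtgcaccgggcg
Iars, 7 bases after the start, chr13:49682126-49682155, plus strand: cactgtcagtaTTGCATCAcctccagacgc
Tars, 15 bases before the start, chr15:11399655-11399684, minus strand: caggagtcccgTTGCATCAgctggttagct
Yars, 3 bases after the start, chr4:129189895-129189924, plus strand: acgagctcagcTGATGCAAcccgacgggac

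The 5 genes with the match had log2 fold changes of 0.69 (Gars) to 1.03 (Tars) in cKO Treg, with a median of 0.81, and of 0.57 (Yars) to 1.06 (Iars) in WT Treg, with a median of 0.69. The 8 cytosolic genes without it (Dars, Eprs, Farsa, Farsb, Kars, Mars, Qars and Sars) ranged from -0.29 to 0.48 in cKO Treg, with a median of 0.20, and from -0.35 to 0.49 in WT Treg, with a median of 0.18. Among these 13 genes the ranges did not overlap in either genotype. The 14 mitochondrial genes, none with the match, ranged from -0.73 to 0.37 in cKO Treg and from -0.79 to 1.02 in WT Treg. A match is a run of letters and not a shown binding site. The promoters of Cars, Hars, Lars, Nars, Rars, Vars, Wars, Hars2 and Pars2 were not read, and Cars, Lars and Nars were called in cKO Treg. These 9 genes ranged from -0.53 to 0.85 in cKO Treg, with a median of 0.67. In WT Treg they ranged from -0.32 to 1.15, with a median of 0.71. Whether they carry the match is unknown, so it is not shown to part genes that rose from genes that did not. The E-box CACGTG, which MYC and its relatives bind, lay in 4 of the 13 cytosolic promoters (Aars, Farsb, Iars and Tars), in 1 of the 14 mitochondrial ones (Ears2) and in 7.15% of all promoters. The motif of NRF1, a factor of mitochondrial gene control, read as GCGCA, any base and GCGC, lay in 3 cytosolic (Farsb, Kars and Tars) and 2 mitochondrial promoters (Iars2 and Mars2), and in 4.60% of all. Aars, Iars and Tars carry both the ATF4-type match and the E-box, and for Iars, the gene with the highest called WT response, the 120 bases that end just before its first GENCODE exon base are given with the E-box in capitals. The sites above were counted from the RefSeq start, which lies further into the gene.
Iars, chr13:49681980-49682099, plus strand: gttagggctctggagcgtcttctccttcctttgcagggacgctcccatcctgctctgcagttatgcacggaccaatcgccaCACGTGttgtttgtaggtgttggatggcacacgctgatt

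Of 25 genes of the ATF4 response other than synthetases, 24 were tested in vitro, and 6 rose in cKO Treg and 4 in WT Treg, with 0 called lower in either. Of all genes, 2.08% were called higher in cKO Treg and 1.61% in WT Treg. Aldh18a1, which makes the precursor of proline, was at 136 and 118 FPKM in stimulated cKO Treg, against 39.3 and 33.7 FPKM in unstimulated cKO Treg (log2 fold change 1.77, adjusted p = 0.00316). The WT values of Aldh18a1 were 121 and 134 FPKM stimulated, against 37.1 and 29.5 FPKM unstimulated (1.91, adjusted p = 0.00228). Slc7a1, the cationic amino acid transporter, rose by 1.44 in cKO (adjusted p = 0.00725) and 1.45 in WT (adjusted p = 0.00767), and Trib3, a pseudokinase that restrains ATF4, by 1.05 in cKO (adjusted p = 0.0318) and 1.10 in WT (adjusted p = 0.0343), all on the log2 scale. Psat1, of serine synthesis, rose by 0.78 in cKO (adjusted p = 0.0452), the transporter Slc7a5 by 0.85 (adjusted p = 0.0460) and Mthfd2, of mitochondrial one-carbon metabolism, by 0.83 (adjusted p = 0.0485). Sesn2, a leucine sensor, rose by 0.88 in WT (adjusted p = 0.0426). A call in 1 genotype alone does not show a difference between genotypes, and the interaction called 0 of all 10710 genes. The list as a whole had a median log2 fold change of 0.05 in cKO and 0.47 in WT, with 12 of 24 above 0 in cKO and 18 of 24 in WT, against 36.7% of all genes in cKO and 45.7% in WT. The Atf4 transcript itself was at 136 and 124 FPKM in stimulated cKO Treg, against 136 and 161 FPKM in unstimulated cKO Treg (-0.19, adjusted p = 0.502). In WT Treg Atf4 was at 202 and 202 FPKM stimulated, against 171 and 190 FPKM unstimulated (0.17, adjusted p = 0.557). ATF4 is known to be controlled at translation, which these libraries do not measure.

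The other lists held 0 or 1 call each. Of the 3 complex scaffolds 0 were called in either genotype, with Eef1e1 at log2 fold changes of 0.53 in cKO (adjusted p = 0.261) and 0.89 in WT (adjusted p = 0.113). At an unadjusted p under 0.05 in limma, 0 scaffolds passed in cKO and 1 in WT, which was higher. Of 9 cytosolic elongation and release factors 0 were called in cKO, where 5 had an unadjusted p under 0.05 in limma, all higher. In WT 1 was called, the elongation factor Eif5a at 0.85 (adjusted p = 0.0201), and 3 had an unadjusted p under 0.05, all higher. The interaction of Eif5a, cKO response minus WT response, was -0.30 and was not called. Of 12 mitochondrial translation factors tested 0 were called in either genotype. At an unadjusted p under 0.05 there were 0 in cKO, and 1 higher and 1 lower in WT. Of all genes, 6.90% passed that threshold higher and 14.5% lower in cKO, and 8.63% higher and 10.1% lower in WT. Of 14 tRNA export, processing and charging genes, Nsun2, a tRNA methyltransferase, rose in cKO by 0.77 (adjusted p = 0.0363) and 0 were called in WT. The interaction called 0 of these 14, so this is not shown to be a difference between genotypes. Of 10 amino acid sensing genes only Sesn1, which is known to restrain mTORC1, was called, and it fell in both genotypes. It was at 14.1 and 14.0 FPKM in stimulated cKO Treg, against 27.5 and 35.9 FPKM in unstimulated cKO Treg (-1.11, adjusted p = 0.0159). In WT Treg it was at 20.6 and 20.9 FPKM stimulated, against 43.1 and 41.5 FPKM unstimulated (-0.99, adjusted p = 0.0244).

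**Figure D4:**
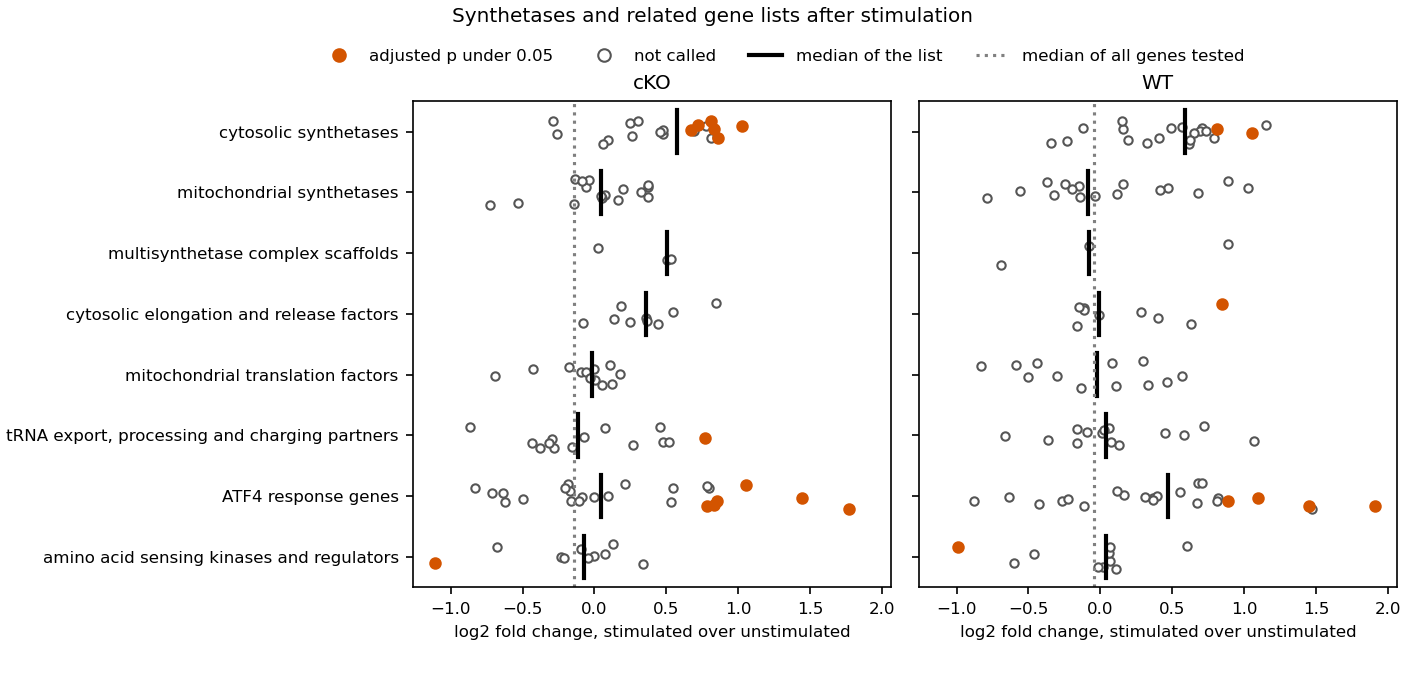
Log2 fold change on log2(FPKM + 1), stimulated over unstimulated, of each tested gene (points) in the 2 synthetase sets and 6 related lists, for cKO (left) and WT (right), with orange points at adjusted p under 0.05, black bars at list medians and dotted lines at the medians of all genes tested. Orange points of cytosolic synthetases number 6 in cKO and 2 in WT, those of ATF4 response genes 6 and 4, and mitochondrial synthetases and mitochondrial translation factors have none.

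Markers of other cells and states were read beside these responses. In cKO Treg the 8 B cell markers summed to 153 and 157 FPKM stimulated, against 175 and 199 FPKM unstimulated, and in WT Treg to 49.9 and 34.2 FPKM stimulated, against 29.7 and 31.3 FPKM unstimulated. Of the 8 markers limma called 0 for stimulation in either genotype. At an unadjusted p under 0.05 there were 1 higher and 1 lower in cKO, and 2 higher and 0 lower in WT. Of all genes, 6.90% passed higher and 14.5% lower in cKO, and 8.63% higher and 10.1% lower in WT. The 7 Treg markers summed to 1607 and 1615 FPKM in stimulated cKO Treg, against 855 and 936 FPKM in unstimulated cKO Treg, and to 1979 and 2201 FPKM in stimulated WT Treg, against 1082 and 1191 FPKM in unstimulated WT Treg, with Foxp3, Il2ra and Gpr83 called higher in both. The 7 mitosis markers summed to 67.5 and 64.6 FPKM in stimulated cKO and 76.7 and 54.4 FPKM in unstimulated cKO Treg, and to 46.9 and 19.6 FPKM in stimulated WT and 60.2 and 18.4 FPKM in unstimulated WT Treg, and 0 of them were called or had an unadjusted p under 0.05 in limma. Their part in the synthetase values was not tested.

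The knockout itself, set against WT, called 0 of the 36 synthetases in vivo, in stimulated culture or in unstimulated culture, where 0.374%, 0.0187% and 0.0747% of all genes were called in either direction by limma. The study's design sets out to compare these genotypes. At an unadjusted p under 0.05 there were 0 members in vivo and in stimulated culture and 1, Vars, in unstimulated culture, where 13.0%, 14.1% and 6.56% of all genes passed. The median log2 fold change of the cytosolic set was 0.01 in vivo, 0.18 in stimulated and 0.11 in unstimulated culture, beside -0.02 in vivo, -0.05 in stimulated and 0.02 in unstimulated culture over all genes. That of the mitochondrial set was -0.02 in vivo, 0.01 in stimulated and 0.02 in unstimulated culture. Missing the threshold with 2 libraries a group does not show that levels were equal.

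In vivo the log2 fold changes of the 36 genes lay between -0.31 and 0.20. Tars was at 23.2 and 22.1 FPKM in cKO Treg, against 19.9 and 19.1 FPKM in WT Treg (0.20 ± 0.11, adjusted p = 0.457). Sars was at 35.1 and 35.2 FPKM in cKO Treg, against 30.1 and 31.1 FPKM in WT Treg (0.19 ± 0.10, adjusted p = 0.448). Cars was at 9.67 and 9.15 FPKM in cKO Treg, against 8.56 and 8.23 FPKM in WT Treg (0.15 ± 0.12, adjusted p = 0.609). All 3 had both cKO libraries above both WT libraries. Rars2, for arginine, was at 3.12 and 2.33 FPKM in cKO Treg, against 3.79 and 3.40 FPKM in WT Treg (-0.31 ± 0.16, adjusted p = 0.458). Dars was at 13.4 and 16.9 FPKM in cKO Treg, against 19.6 and 17.9 FPKM in WT Treg (-0.30 ± 0.14, adjusted p = 0.422). Without the second cKO library Dars was called lower, in a fit where 1994 genes were called and the lone cKO library was taken to vary like the WT libraries. Cars2 was at 9.26 and 9.53 FPKM in cKO Treg, against 11.6 and 11.2 FPKM in WT Treg (-0.25 ± 0.11, adjusted p = 0.411). These 3 had both cKO libraries below both WT libraries. In all, 6 cytosolic genes had their cKO libraries above and 5 below, and 2 and 3 mitochondrial genes, where 21.5% of all genes lay above and 25.8% below. Log2 fold changes above 0 numbered 10 of 20 cytosolic and 7 of 16 mitochondrial genes, against 46.9% of all genes.

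In unstimulated culture Vars had the largest difference. It was at 33.5 and 31.6 FPKM in cKO Treg, against 14.4 and 9.90 FPKM in WT Treg (1.37 ± 0.42, adjusted p = 0.516), so the groups were apart. Without both WT replicate 2 libraries it was called, in a fit where 52 genes were called and each lone WT library was taken to vary like the cKO libraries. In vivo the Vars groups overlapped, at 42.3 and 57.3 FPKM in cKO Treg and 48.8 and 53.2 FPKM in WT Treg. Wars2, at 2.48 and 1.56 FPKM in cKO Treg against 1.35 and 0.639 FPKM in WT Treg, had a log2 fold change of 0.60 ± 0.34 (adjusted p = 0.856). Pars2, for proline, was at 3.78 and 2.85 FPKM in cKO Treg, against 3.03 and 0.131 FPKM in WT Treg, with a log2 fold change of 1.01 ± 0.55 (adjusted p = 0.844) and overlapping groups, of which the second WT library stood far below the other 3 values. Lars2 (-0.62), Rars2 (-0.54) and Yars2 (-0.20) had the lowest values, and their groups overlapped, Rars2 at 4.44 and 2.96 FPKM in cKO Treg and 3.71 and 8.68 FPKM in WT Treg, and Yars2 at 6.56 and 8.78 FPKM in cKO Treg and 7.88 and 10.0 FPKM in WT Treg. Groups were apart, cKO above WT, for 3 cytosolic (Aars, Iars and Vars) and 3 mitochondrial genes, and below for 0, where 17.8% of all genes lay above and 16.6% below. Above 0 were 15 of 20 cytosolic and 9 of 16 mitochondrial log2 fold changes, against 53.0% of all genes.

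In stimulated culture 17 of the 20 cytosolic genes were above 0, where 44.9% of all genes were, and 8 had both cKO libraries above both WT libraries while 0 had them below. Of all genes 18.5% lay above and 29.8% below. The 8 were Aars, Dars, Eprs, Kars, Lars, Qars, Tars and Wars. Their log2 fold changes were 0.10 to 0.39 and none was called. Vars was at 40.8 and 37.8 FPKM in stimulated cKO Treg, against 47.3 and 16.1 FPKM in stimulated WT Treg (0.49 ± 0.42, adjusted p = 0.637). Without the second stimulated WT library its log2 fold change turned to -0.26. Of the mitochondrial genes Nars2 was at 2.67 and 2.59 FPKM in stimulated cKO Treg, against 2.15 and 0.581 FPKM in stimulated WT Treg (0.70 ± 0.37, adjusted p = 0.436). Iars2 was at 23.1 and 24.5 FPKM in stimulated cKO Treg, against 19.4 and 15.9 FPKM in stimulated WT Treg (0.42 ± 0.19, adjusted p = 0.375). Both were higher in each cKO library than in each WT library. Cars2, at 5.38 and 6.27 FPKM in stimulated cKO against 7.13 and 10.3 FPKM in stimulated WT Treg, had a log2 fold change of -0.49 (adjusted p = 0.487). Sars2, at 6.39 and 4.999 FPKM in stimulated cKO against 7.57 and 8.37 FPKM in stimulated WT Treg, had -0.43 (adjusted p = 0.483). Yars2, at 9.03 and 6.85 FPKM in stimulated cKO against 9.495 and 10.6 FPKM in stimulated WT Treg, had -0.31 (adjusted p = 0.584). These last 3 had both cKO libraries below both WT libraries.

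**Figure D5:**
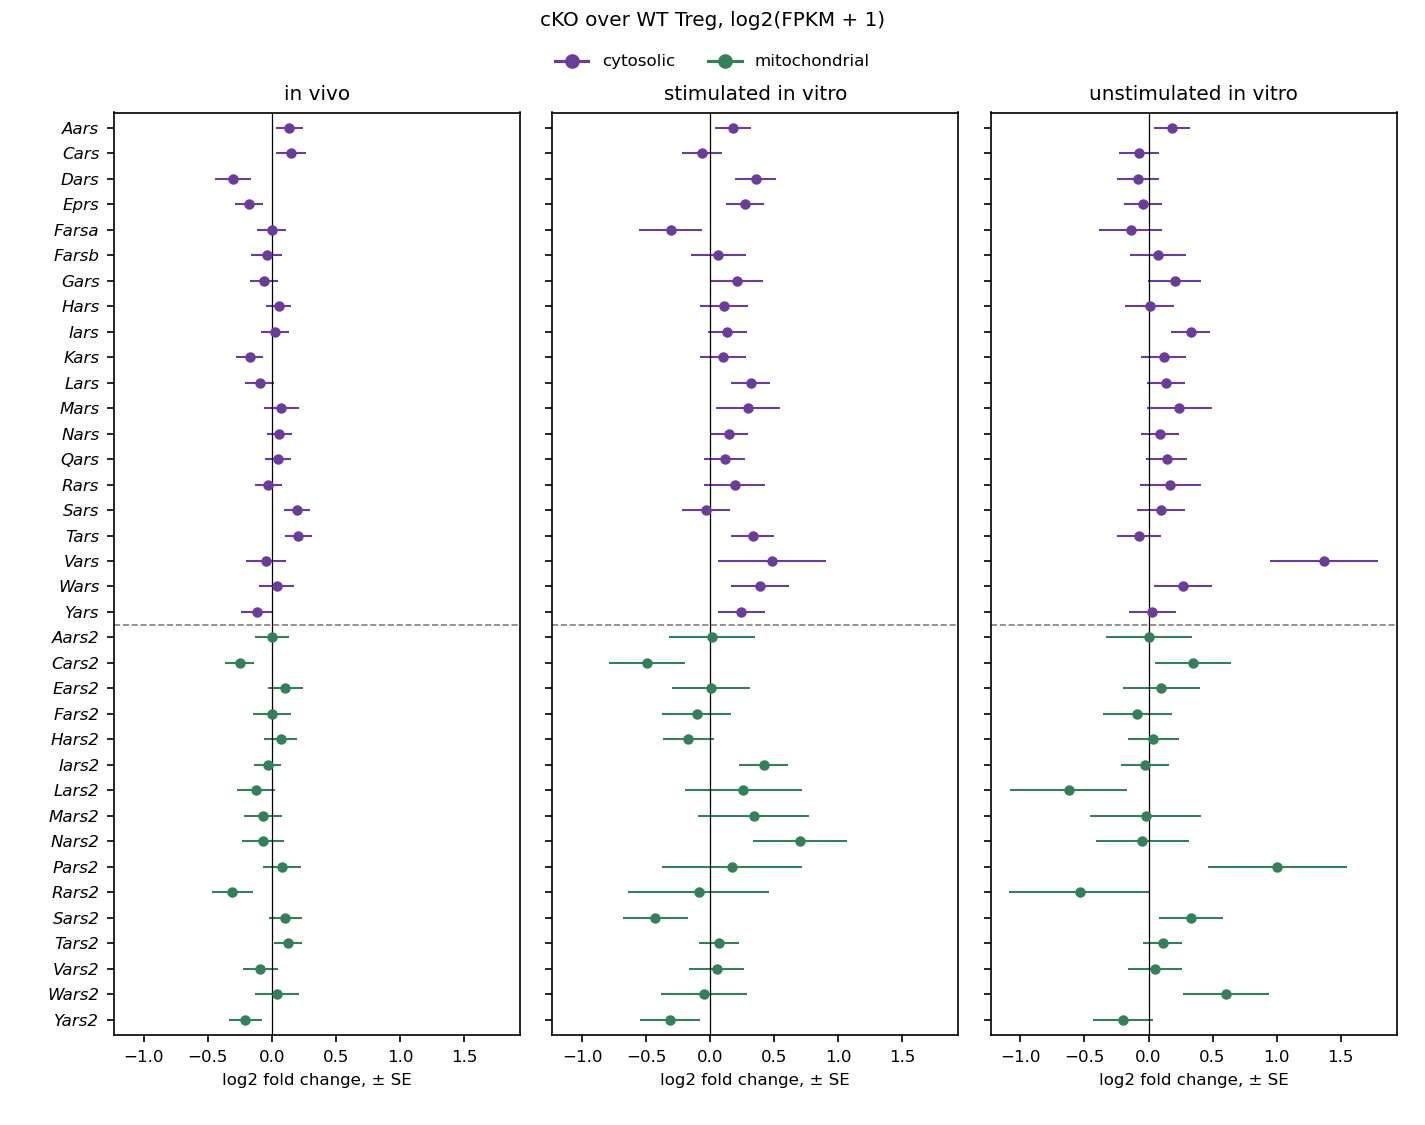
Log2 fold change on log2(FPKM + 1), cKO over WT, with bars of ± 1 SE, for the 36 synthetases in vivo, in stimulated and in unstimulated culture, cytosolic genes in purple above mitochondrial genes in green. No point passed the threshold, the in vivo points stay between -0.31 and 0.20, and Vars at 1.37 stands apart in unstimulated culture.

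The plot of genotype differences is to be read beside markers of other cells, which differed between the genotypes. The 8 B cell markers summed to 18.5 and 26.0 FPKM in cKO Treg in vivo, against 56.1 and 73.7 FPKM in WT Treg in vivo. In stimulated culture they summed to 153 and 157 FPKM in cKO Treg, against 49.9 and 34.2 FPKM in WT Treg, and in unstimulated culture to 175 and 199 FPKM in cKO Treg, against 29.7 and 31.3 FPKM in WT Treg. All 8 had their groups apart in each of the 3 comparisons, cKO below WT in vivo and above WT in culture. Calls included Cd79a in vivo, Cd79b in stimulated and Cd79a and Cd79b in unstimulated culture, and 1 of the 8, Cd22, was at 0 in 1 stimulated WT library. In culture the myeloid markers summed to 93.7 and 38.7 FPKM in stimulated cKO and 9.85 and 7.15 FPKM in stimulated WT Treg, and to 157 and 44.6 FPKM in unstimulated cKO and 12 and 15.8 FPKM in unstimulated WT Treg. Of the 8 myeloid markers listed in vitro, 5 were at 0 in the second stimulated WT library (Csf1r, Itgam, Cd14, Cd68 and S100a8). Foxp3 was at 238 and 268 FPKM in stimulated cKO Treg, against 529 and 696 FPKM in stimulated WT Treg. In unstimulated culture it was at 71.5 and 82.6 FPKM in cKO Treg, against 194 and 189 FPKM in WT Treg. It had the lowest log2 fold change, cKO over WT, of the 7 Treg markers in stimulated (-1.26) and unstimulated culture (-1.31). Of the 7, 4 were above 0 in each culture (medians 0.03 stimulated and 0.25 unstimulated) and 6 in vivo (median 0.30), with 0 called. The 7 mitosis markers were all below 0 in vivo (median log2 fold change -0.27, cKO over WT) and all above 0 in stimulated (0.94) and unstimulated culture (0.81), with 0 called and 2 at an unadjusted p under 0.05 in limma, both in stimulated culture. They summed to 39.1 and 64.5 FPKM in cKO Treg in vivo, against 60.6 and 64.7 FPKM in WT Treg in vivo. Of the 9 erythroid markers tested in culture, 7 were above 0 in stimulated (median 4.24) and 8 in unstimulated culture (median 3.06), with 0 called in stimulated and 1 in unstimulated culture, and 6 at an unadjusted p under 0.05 in each. Of all genes, 14.1% passed that unadjusted threshold in stimulated and 6.56% in unstimulated culture. The part of these markers in the synthetase values was not tested.

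The related lists held no call for genotype either, in vivo or in culture. The largest differences in the ATF4 list, by log2 fold change, were Cebpb at -0.57 (adjusted p = 0.213) and Trib3 at 0.47 (adjusted p = 0.336) in vivo. In stimulated culture they were Cebpb at -1.14 (adjusted p = 0.12) and Ppp1r15a at -1.01 (adjusted p = 0.147), and in unstimulated culture Slc7a11 at 1.44 (adjusted p = 0.727) and Atf5 at 0.93 (adjusted p = 0.825). Of the scaffolds, Aimp1 had 0.63 (adjusted p = 0.398) in stimulated culture. At an unadjusted p under 0.05 in limma, the ATF4 list had 2 higher and 1 lower of 21 tested in vivo. Of 24 tested in culture, it had 2 higher and 5 lower when stimulated and 2 higher and 2 lower when unstimulated. Of all genes, 13.0% passed in either direction in vivo, 14.1% in stimulated and 6.56% in unstimulated culture.

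Whether stimulation acted differently in cKO and in WT Treg was tested as the interaction, and limma called 0 of 36 members and 0 of all 10710 genes. At an unadjusted p under 0.05 there were 0 members and 3.55% of all genes. The cytosolic set had a median difference, cKO response minus WT response, of 0.02, and the mitochondrial set of -0.03, beside -0.08 over all genes. Differences above 0 numbered 12 of 20 and 6 of 16, against 41.5% of all genes. The extremes were low or uneven genes, Vars at -0.89 ± 0.60, Cars2 at -0.84 ± 0.42 and Pars2 at -0.84 ± 0.77 on the negative side, and Lars2 at 0.88 ± 0.65, Nars2 at 0.75 ± 0.52 and Rars2 at 0.45 ± 0.78 on the positive side, each with adjusted p = 0.999. Pars2 was at 3.23 and 3.66 FPKM in stimulated cKO Treg and 2.29 and 3.75 FPKM in stimulated WT Treg, and Rars2 at 4.77 and 3.94 FPKM in stimulated cKO Treg and 2.204 and 9.09 FPKM in stimulated WT Treg. Both of these values turned sign without unstimulated WT replicate 2, to 0.08 for Pars2 and -0.07 for Rars2.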

How the data were processed

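Titles gave each library its group. FPKM were deposited in 2 tables, with a column per library per the file headers. Per the submitters' processing notes, HISAT2 2.2.1 and StringTie 2.1.1 were among the tools and mm10 and hg19 among the builds, with no role stated. The sources used here do not give the annotation, filters or strand setting. The in vivo columns carry no replicate number, so first and second follow table order there. A further 4 library columns match no sample used here and were left out. The 16232 in vivo genes are numbered, and 16196 were matched to RefSeq symbols; the 24421 in vitro genes carry symbols. Mars carries the RefSeq symbol Mars1 there.

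Values were analysed as log2(FPKM + 1), which understates changes of low genes. The 4 in vivo and the 8 in vitro libraries were fitted apart with limma 3.58.1 (R 4.3.3; eBayes with intensity trend, two-sided), over 10415 and 10710 genes whose mean FPKM reached 1, and checked on simulated data. Adjusted p-values are limma's, by Benjamini-Hochberg over all genes tested, with a threshold of 0.05. Depth is unknown, so no counting interval was computed. The 2 libraries of a group did not hold the same values in any group, and libraries of different groups were not compared for this. Members and lists were chosen with earlier results of these data known, so lists are described by counts and medians with no test of their own. The rule for named genes takes every called member and, per comparison, the 3 largest rises and falls. Gene positions are GENCODE vM21 (GRCm38); promoter sequences are RefSeq's, searched with Python 3.11.15. Alternatives were a pseudocount of 0.1, no filter, a floor of 5 FPKM, median-of-ratios, quantile and common-sum scaling (with and without haemoglobin genes), the replicate number as a block, leaving out each library, and leaving out both in vitro WT replicate 2 or cKO replicate 1 libraries.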

Additional observations from a re-analysis of the deposited data

Results flagged for a closer look

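For 4 cytosolic genes of the multisynthetase complex the cKO libraries lay on 1 side of the WT libraries in vivo and on the other side in stimulated culture, with no overlap in either. On the log2(FPKM + 1) scale, cKO over WT, Dars had -0.302 in vivo and 0.354 in stimulated culture, Eprs -0.179 and 0.271, Kars -0.173 and 0.0999, and Lars -0.0958 and 0.318. None of these 8 values was called. In unstimulated culture the groups of all 4 genes overlapped, with Dars at -0.084, Eprs at -0.044, Kars at 0.12 and Lars at 0.14. The difference between in vivo and culture was not tested, since the tables were normalized apart. Of all genes tested, 25.8% had both cKO libraries below both WT libraries in vivo, and 18.5% had them above in stimulated culture. How many genes did both was not counted, so the pattern is not shown to be particular to these 4. In stimulated culture Dars was at 29.4 and 26.0 FPKM in cKO Treg, against 23.7 and 19.4 FPKM in WT Treg. The 8 B cell markers and the 7 mitosis markers changed side in the same way, all below 0 in vivo and all above 0 in stimulated culture (medians -1.16 and 1.83 for B cell and -0.27 and 0.94 for mitosis markers), and their part was not tested.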

How the results depend on the processing

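With 2 libraries a group, calls depended on single libraries more than directions did. The rule for named genes gave 680 values under an alternative, most of them of members not called. Of these, 611 kept their direction and side of the threshold, 50 lost and 11 gained the call, and 8 turned sign. Over 18 alternatives Aars kept its WT call in 8 and Iars in 15. In cKO Treg Cars kept its call in 11, and Aars, Iars, Lars, Nars and Tars each in 12. Yars, outside the rule there, was called in cKO Treg in 8. Of 500 counts and medians, 415 stayed near the value given above. The causes were not tested, beyond the smaller number of libraries or larger number of genes that an alternative brings by construction. Genotype in vivo, with 39 genes called, had 0 without the filter, 74 by median of ratios, 62 at a common sum and 17 to 1994 without 1 library. The cytosolic calls there were 0 to 1 without 1 library (Dars), and the mitochondrial median was 0.0069 by median of ratios and -0.0738 to 0.00406 without 1 library. Genotype in unstimulated culture, with 8 genes called, had 15 without the filter, 52 without both WT replicate 2 libraries (1 of them cytosolic, Vars), 0 without both cKO replicate 1 libraries and 0 to 28 without 1 library. The cytosolic median was 0.00375 to 0.215 and the mitochondrial median -0.0236 to 0.0843 without 1 library, and the mitochondrial median was -0.101 by quantiles and -0.0377 at a common sum. Genotype in stimulated culture, with 2 genes called, had 0 with a pseudocount of 0.1, 6 without the filter, 1 at a common sum, 7 when both WT replicate 2 libraries were left out, 0 when both cKO replicate 1 libraries were and 0 to 197 without 1 library.

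The cKO response, with 490 genes called, had 110 without the filter, 1932 when both WT replicate 2 libraries were left out, 1 without both cKO replicate 1 libraries and 12 to 660 without 1 library. Its 6 cytosolic calls were 0 without the filter, 10 without both WT replicate 2 libraries, with 1 mitochondrial call (Cars2, lower), 0 without both cKO replicate 1 libraries and 0 to 7 without 1 library. Its mitochondrial median was -0.0577 with a floor of 5 FPKM, 0.163 by median of ratios, 0.203 by quantiles, 0.171 at a common sum, 0.165 without haemoglobin genes, 0.143 without both cKO replicate 1 libraries and -0.0498 to 0.0762 without 1 library. The WT response, with 260 genes called, had 27 without the filter, 32 without both cKO replicate 1 libraries and 95 to 966 without 1 library. Its 2 cytosolic calls were 0 without the filter, 5 at a common sum, 0 without both cKO replicate 1 libraries and 0 to 3 without 1 library, with 0 to 1 mitochondrial calls. Its cytosolic median was 0.716 at a common sum, 0.718 without haemoglobin genes and 0.433 to 0.632 without 1 library. The interaction, with 0 genes called, had 11 without the filter, 5 without both WT replicate 2 libraries and 0 to 3 without 1 library. Signs turned for Vars in the stimulated genotype comparison (-0.264 without both WT replicate 2 libraries, and -0.264 to 1.23 without 1 library), for Pars2 in the interaction (0.344 without both, and -1.76 to 0.0781 without 1 library), for Rars2 in the interaction (-0.379 to 1.28 without 1 library) and for Lars2 in the WT response (-1.15 to 0.0345 without 1 library).

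With the replicate number as a block, the cKO response had 7 cytosolic calls (Aars, Gars, Iars, Lars, Nars, Tars and Wars, with Cars lost), the WT response 3 (Aars, Gars and Iars), and genotype in stimulated culture 0 genes. Differences between replicates 1 and 2 correlated at 0.42 between the cKO and 0.239 between the WT conditions, but at -0.138 to 0.0577 between genotypes, and no label ties the numbers to an animal, culture or day. With 2 pairs a genotype they were not taken as paired, although within a genotype same-numbered libraries differed together, also in haemoglobin and in genes at 0. No block was fitted in vivo, where columns carry none. FPKM give no depth, so what depth limits is unknown.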
